A study of Mus musculus with 4 samples.

Results

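Of 1849 CHD4 intervals called over IgG in mouse cells labelled spermatogonial, 27 were assigned to genes of protein synthesis. They were chosen by gene name: a name with "ribosomal protein", "eukaryotic translation" or "tRNA synthetase", and without "kinase" or "binding protein". No measured value entered this rule, but it was set with earlier results of these data known and applied to intervals already called. The 27 intervals held 29 summits, the positions of highest signal, of 2066 in the list, and named 23 genes of 1517. There were 13 intervals at 10 cytosolic ribosomal protein genes, 2 at 2 mitochondrial ribosomal protein genes, 5 at 5 translation factor genes and 6 at 5 genes with tRNA synthetase in their name. The remaining interval was assigned to 1700073E17Rik, a pseudogene of ribosomal protein L7. Aarsd1 entered by its name alone, since it encodes a protein with a synthetase-like domain and not a synthetase.

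CHD4 is the ATPase of NuRD, a complex that moves nucleosomes and removes acetyl groups from histones. It was mapped by CUT&Tag, in which antibody-bound chromatin is cut and tagged in place by a tethered Tn5 transposase, in wild-type C57BL/6 mice. The CHD4 antibody (Abcam, ab70469) was used on 2 samples and, as the control, Rabbit Anti-Mouse IgG H&L (HRP) on 2, each pair described as biological replicates, and the sources used here give neither the age of the mice nor the way spermatogonia were separated from the digested testes. The authors' deposited list is 1 call of CHD4 against IgG, with no value for a single sample, so no interval has an error between replicates and no test between samples was possible. The list also cannot tell strong binding in few cells from weak binding in many. Each gene below is the one with the transcript start nearest to the interval in the authors' annotation. That assignment does not show that the gene responds to CHD4.

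The cytosolic ribosome is built from a small subunit, whose proteins carry names beginning with Rps, and a large subunit, whose proteins carry names beginning with Rpl. Mitochondria have a separate ribosome made of Mrps and Mrpl proteins, which are encoded in the nucleus. Initiation factors bring mRNA, initiator tRNA and subunits together, elongation factors deliver each charged tRNA, and aminoacyl-tRNA synthetases charge tRNAs with their amino acids. Cytosolic ribosomal protein genes are transcribed at high levels in most cells, commonly from compact, GC-rich promoters whose transcripts begin with a run of pyrimidines. In the testis, spermatogonia must grow and divide before meiosis, and later germ cells place much of their mRNA under control of translation.

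The sequences below are the promoters of the 6 member genes with the highest fold among those whose interval held the authors' transcript start and for which a window was given. They show promoter sequence at or beside the signal. The summits of Eif2s3x and Rpl37a lay inside their windows, while those of Rpl5, Aarsd1, Wars2 and Rpl36al lay outside. Each runs 5′ to 3′ on the gene's strand for 300 bases, from 250 before the RefSeq start to 50 from the start onwards, with coordinates on GRCm38.p6, which are those of mm10. Capitals mark the base at the RefSeq start and every match, on either strand, to CTTCCGG (ETS factors), GGGCGG (SP factors), TATAAA (the TATA box), AAGATGGC (YY1) or GCGCATGCG (NRF1). The NRF1 motif was added after the windows had been seen.
Rpl5 promoter, chr5:107900278-107900577, plus strand: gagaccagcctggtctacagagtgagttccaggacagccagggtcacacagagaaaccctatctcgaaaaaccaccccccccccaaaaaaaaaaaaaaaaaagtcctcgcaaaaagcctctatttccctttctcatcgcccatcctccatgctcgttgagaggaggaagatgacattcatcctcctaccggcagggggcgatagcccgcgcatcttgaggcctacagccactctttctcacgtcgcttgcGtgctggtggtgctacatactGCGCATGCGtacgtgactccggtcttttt
Eif2s3x promoter, chrX:94212602-94212901, minus strand: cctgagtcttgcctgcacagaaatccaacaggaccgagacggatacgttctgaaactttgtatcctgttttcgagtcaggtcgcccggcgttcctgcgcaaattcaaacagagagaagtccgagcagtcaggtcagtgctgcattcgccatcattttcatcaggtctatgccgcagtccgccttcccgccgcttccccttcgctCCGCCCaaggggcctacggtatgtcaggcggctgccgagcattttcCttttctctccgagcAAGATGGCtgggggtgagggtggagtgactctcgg
Rpl37a promoter, chr1:72711010-72711309, plus strand: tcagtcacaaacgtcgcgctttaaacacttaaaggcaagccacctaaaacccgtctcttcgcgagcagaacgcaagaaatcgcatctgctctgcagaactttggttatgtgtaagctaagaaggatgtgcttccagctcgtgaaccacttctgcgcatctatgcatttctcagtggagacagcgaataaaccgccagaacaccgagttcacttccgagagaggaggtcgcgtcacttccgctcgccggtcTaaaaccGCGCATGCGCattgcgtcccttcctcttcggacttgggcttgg
Aarsd1 promoter, chr11:101417384-101417683, minus strand: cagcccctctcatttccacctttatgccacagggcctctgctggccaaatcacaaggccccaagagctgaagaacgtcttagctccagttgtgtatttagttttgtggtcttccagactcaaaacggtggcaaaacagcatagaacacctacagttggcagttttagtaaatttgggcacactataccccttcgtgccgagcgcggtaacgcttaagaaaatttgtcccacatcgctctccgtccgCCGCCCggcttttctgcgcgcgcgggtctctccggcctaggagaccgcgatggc
Wars2 promoter, chr3:99140840-99141139, plus strand: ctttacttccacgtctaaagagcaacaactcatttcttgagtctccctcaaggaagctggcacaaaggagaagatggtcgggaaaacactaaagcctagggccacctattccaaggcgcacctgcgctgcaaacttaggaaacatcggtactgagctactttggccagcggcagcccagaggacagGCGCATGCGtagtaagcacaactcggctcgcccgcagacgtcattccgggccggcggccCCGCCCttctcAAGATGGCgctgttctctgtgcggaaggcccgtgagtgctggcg
Rpl36al promoter, chr12:69184018-69184317, minus strand: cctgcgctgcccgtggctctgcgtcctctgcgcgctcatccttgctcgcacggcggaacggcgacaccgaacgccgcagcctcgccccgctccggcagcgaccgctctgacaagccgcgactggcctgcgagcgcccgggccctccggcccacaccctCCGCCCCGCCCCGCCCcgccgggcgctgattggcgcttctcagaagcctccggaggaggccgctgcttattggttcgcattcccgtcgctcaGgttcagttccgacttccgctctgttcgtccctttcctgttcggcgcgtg
The RefSeq starts lay between 30 and 81 bp from the starts that the authors used, so the windows overlap the intervals to different extents. The interval covered 300 bases of the Eif2s3x window, 181 of Rpl37a, 119 of Aarsd1, 41 of Rpl5, 29 of Rpl36al and 19 of Wars2.

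Positions in a window are counted from 1 at the RefSeq start, with negative numbers before it. The Rpl5 window held an NRF1 match from 22 to 30, inside the CHD4 interval. Rpl37a held a pair of overlapping NRF1 matches on opposite strands, from 8 to 16 and from 9 to 17, also inside its interval. The YY1 match of Eif2s3x, from 16 to 23, and its SP match from -46 to -41 lay inside the interval as well. In Aarsd1 an SP match from -4 to 2 spanned the start and lay in the interval. The 3 matches of Wars2 and the 3 SP matches of Rpl36al, which overlap one another, lay outside the parts of these windows that the intervals covered. A match is a run of letters and not evidence that the factor was bound.

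Windows were found for 18 of the 23 member genes, among them 15 of the genes with an interval within 1 kb of the start. For these 15 the background is the 17491 protein-coding genes with a window and the 463 of them with any CHD4 interval within 1 kb of the start. Some genes had several windows, and a gene was counted as matched if any of its windows matched. The ETS motif was matched in 5 of 15 genes (33.3%), Mrpl22, Rpl27a, Rps10, Rps27l and Sars2. The background shares were 12.9% of all genes with a window and 20.3% of those with a promoter interval. The cytosolic ribosomal protein family as a whole had the ETS motif in 26 of 68 genes (38.2%), so the motif was common in the family at large. YY1 was matched in 4 of 15 (26.7%), Eif2s3x, Eif4e, Wars2 and Yars2, beside 3.57% and 6.26%. None of those 4 genes encodes a cytosolic ribosomal protein. Over whole families the YY1 match was in 7 of 68 cytosolic genes (10.3%), 12 of 69 mitochondrial (17.4%), 6 of 42 factor (14.3%) and 4 of 28 synthetase genes (14.3%). NRF1 was matched in 4 of 15 (26.7%), Mrpl22, Rpl37a, Rpl5 and Wars2, beside 2.61% and 7.34%. This motif was chosen after the printed windows, which include those of Rpl37a, Rpl5 and Wars2, had been seen. Its share among members is therefore tied to that choice and is no evidence of an excess over the backgrounds. Over whole families it was in 3 of 68 cytosolic genes (4.41%), 7 of 69 mitochondrial (10.1%), 3 of 42 factor (7.14%) and 2 of 28 synthetase genes (7.14%).

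The SP motif was in 10 of 15 genes (66.7%), between the 49.2% of all genes with a window and the 73.9% of those with an interval. The TATA motif was in none of the 15, beside 14.8% and 9.07%. From the RefSeq start onwards, 5 of the 15 had a run of at least 4 pyrimidines (33.3%), beside 6.88% and 8.64%. The longest runs were 16 bases in Rpl27a, 11 in Eif2s3x and 10 in Rps10, with 6 in Wars2 and 5 in Eef1a1. Such runs were in 20 of the 68 cytosolic family genes (29.4%). Median GC content was 57.7%, beside 56.3% over all genes with a window and 60.3% over those with an interval. CpG dinucleotides numbered a median of 22 per window, against 13 over all genes and 21 over those with an interval. These shares describe 15 genes, and no difference between them and the backgrounds was tested.

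Most member intervals lay at promoters. Of the 27, 17 were within 1 kb of the transcript start (63.0%, exact 95% binomial interval 42.4 to 80.6), against 614 of the other 1822 intervals (33.7%). The start itself was inside 10 member intervals (37.0%), beside 290 of all 1849 (15.7%). Among the cytosolic ribosomal protein intervals 9 of 13 were at promoters, among the synthetase-named ones 4 of 6, among the factors 3 of 5, and of the mitochondrial pair 1. These intervals cover counting error only, since neighbouring intervals are not independent and none is a replicate.

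Counted by gene, the cytosolic ribosomal protein family had 10 of its 89 genes named for an interval (11.2%, exact 95% binomial interval 5.52 to 19.7). The share over all 21883 protein-coding genes was 6.07%. For an interval within 1 kb of the start the count was 9 of 89 (10.1%, 4.73 to 18.3), beside 2.55% of all genes. The mitochondrial family had 2 of 78 (2.56%, 0.312 to 8.96) and at promoters 1 of 78 (1.28%, 0.0325 to 6.94). Translation factors had 5 of 54 (9.26%, 3.08 to 20.3) and at promoters 3 of 54 (5.56%, 1.16 to 15.4). Aminoacyl-tRNA synthetases had 4 of 37 (10.8%, 3.03 to 25.4) and at promoters 3 of 37 (8.11%, 1.70 to 21.9). Over the 4 families together 16 of 258 genes had a promoter interval (6.20%).

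The cytosolic promoter share had an interval whose lower end was above the 2.55% of all genes, while the intervals of the other 3 families held that value. These families were chosen with earlier results of these data known, so this comparison is a description and not a test of an excess. For intervals at any distance, the interval of each of the 4 families held the 6.07% of all genes. The intervals of the cytosolic and mitochondrial families overlapped, and the difference between them was not tested. Most cytosolic ribosomal protein genes, 79 of 89, had no interval. Many of these genes have near-identical processed copies elsewhere in the genome, and the sources used here do not say what was done with reads that fit more than 1 place. Read loss to such copies was not tested.

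The authors' annotation names 1 gene for each interval, so a shared promoter is counted for 1 gene only. By position, 473 of 17491 genes with a RefSeq start (2.7%) had that start within 1 kb of any interval. The counts were 7 of 68 cytosolic, 2 of 69 mitochondrial, 3 of 42 factor and 3 of 28 synthetase genes. Genes for which no such start was found were left out, among them Rps29 and Rpl3, each with an interval at its promoter. The mitochondrial genes were Mrpl22 and Mrps12, a small-subunit protein of the mitochondrial ribosome. Mrps12 came in through the interval assigned to Sars2, which lay 193 bp from its start.

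**Figure D1:**
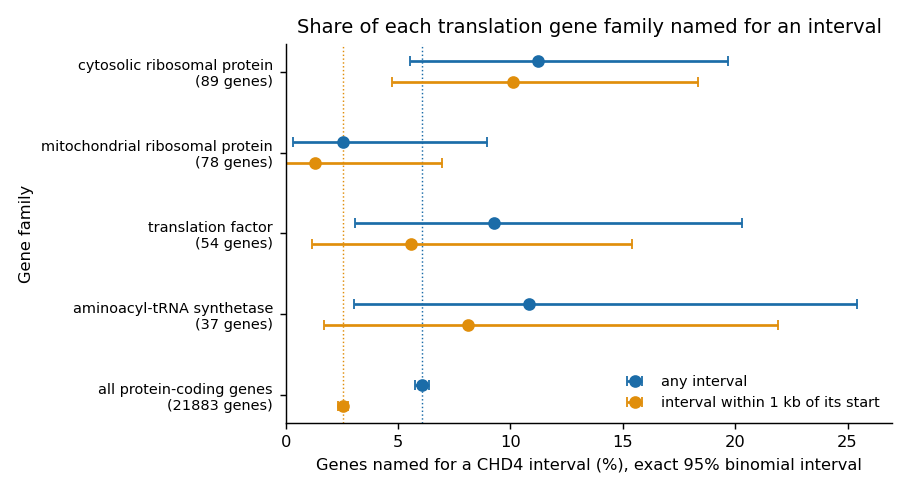
Share of the genes in each family named for a CHD4 interval, in percent on the x axis, for any interval and for an interval within 1 kb of the start, with exact 95% binomial intervals and a line at the share over all protein-coding genes (6.07% and 2.55%). The cytosolic ribosomal protein genes stand at 11.2% and 10.1%, and the mitochondrial ones at 2.56% and 1.28%.

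Fold, the authors' ratio of CHD4 signal to IgG background at the summit, was not high among the members. Their median fold was 4.54, ranging from 2.44 to 10.1, beside 4.76 over all intervals. Only 8 of 27 exceeded the median of the list (29.6%, 13.8 to 50.2). At promoters the 17 members had a median of 4.18 and all 631 promoter intervals 4.32, with 7 of 17 members above the latter. By class the median was 4.22 for the 13 cytosolic intervals, 4.06 for the 5 factor intervals, 4.73 for the 6 synthetase-named ones and 4.73 for the mitochondrial pair. A false discovery rate q of at most 0.01 was reached by 19 of 27 members (70.4%) and by 1430 of 1849 intervals (77.3%).

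The number of CHD4 fragments under each summit was recovered from the deposited fold and p, on a model of the caller described with the processing. These numbers are the fewest that fit the model, and the Poisson ranges given below take them as the true counts. Members held a median of 33 fragments, between 16 and 80, beside 27 over all intervals. The IgG expectation, in fragments at the scale of the IgG library, was 2.21 in the median and 1.31 over all intervals. At that scale 1 CHD4 fragment counts as 0.429. Both numbers were higher at promoters than elsewhere across the list, with medians of 34 fragments and 2.40 at promoters and 25 fragments and 1 elsewhere. Fewer than 20 fragments supported 7 of 27 member intervals (25.9%), close to the 474 of 1849 in the list (25.6%).

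**Figure D2:**
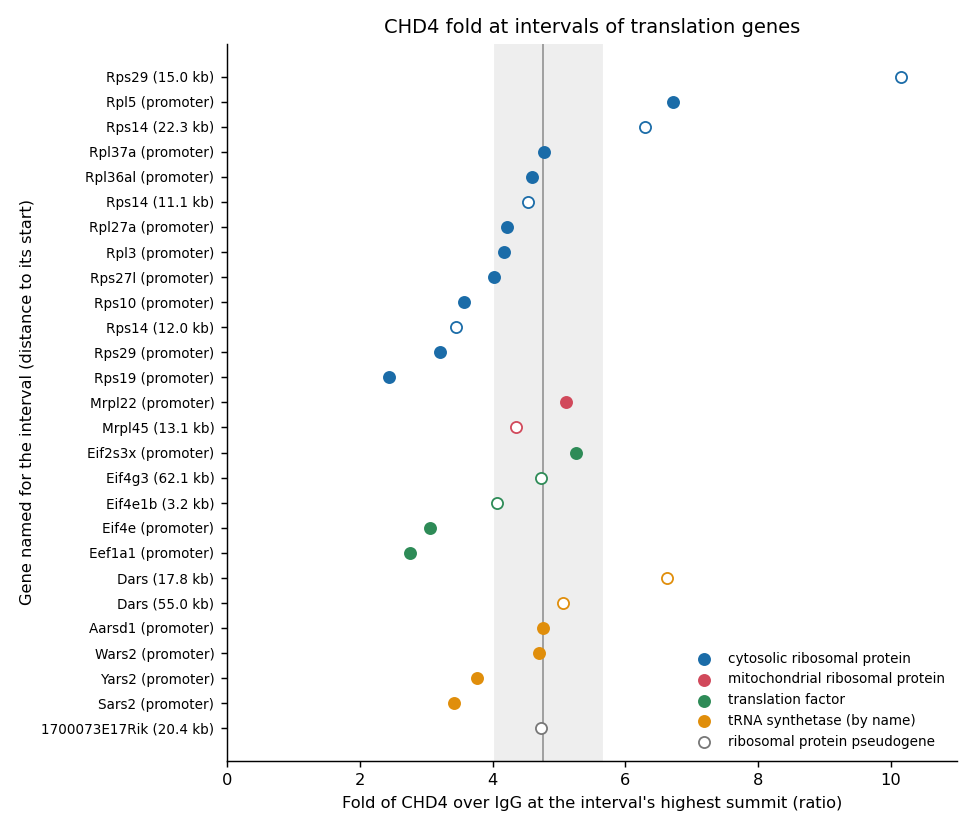
Fold of CHD4 over IgG (x axis, a ratio without unit) for each of the 27 intervals, grouped by gene class, filled circles for promoter intervals and open circles for others, with a line at the list's median of 4.76 and a grey band between its quartiles of 4.03 and 5.64. Folds run from 2.44 at Rps19 to 10.1 in the distal Rps29 interval, and 8 of 27 lie above the line.

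**Figure D3:**
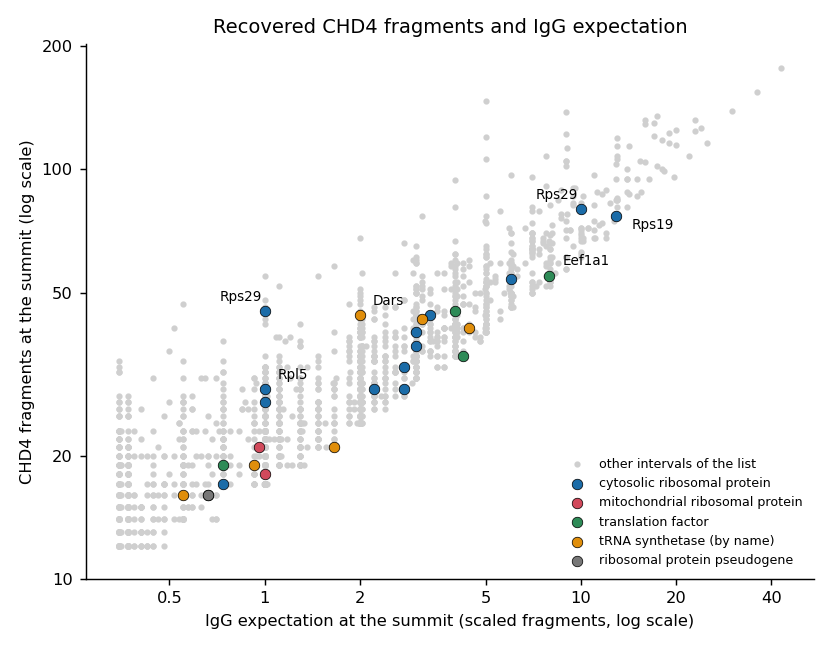
CHD4 fragments at the summit (y axis, log scale) against the IgG expectation in scaled fragments (x axis, log scale), with members coloured by class and the other intervals of the list in grey. Rps19 and the Rps29 promoter lie at the upper right with 77 and 80 fragments over expectations of 12.9 and 10, while the distal Rps29 interval has 45 over 1.

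Among large-subunit genes, Rpl5 had the highest fold. RPL5 is a large-subunit protein that, when not built into ribosomes, can also bind MDM2 and thereby stabilise p53. Its interval at chr5:107900537-107901171 ran for 635 bp from 35 bp before the start to 599 bp after it. The summit of higher fold, 101 bp after the start, reached 6.72 with 29 fragments (19.4 to 41.6, the exact 95% Poisson range) where IgG predicted 1, and the other, at 500 bp, reached 6.00 from 22 over 0.738. The q was 3.03e-06. Its fold was at the 89.5 percentile of the list and was the highest of the 17 member promoter intervals.

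Rpl37a, whose product is a zinc-binding protein of the large subunit, had an interval at chr1:72711129-72711464 across its start. Fold was 4.77, from 17 fragments (9.90 to 27.2) over 0.738, with q 0.00860 and the summit 74 bp upstream. This was the fewest fragments of any cytosolic member interval, so its fold is the least precise of them. Rpl36al, an intronless relative of the large-subunit gene Rpl36a, had a fold of 4.60 at chr12:69183761-69184046, from 44 fragments over 3.32. The same interval lay 112 bp from Mgat2, which encodes an enzyme of N-glycan synthesis, so the signal cannot be placed at 1 of these genes alone. Rpl27a, of the large subunit, had an interval with 2 summits at chr7:109518961-109519266, 1 with fold 4.22 from 37 fragments at 133 bp upstream and 1 with 3.45 from 31 at 2 bp after the start. At Rpl3, whose protein reaches towards the peptidyl transferase centre, the interval ended 135 bp upstream of the start, with fold 4.18 from 29 fragments over 2.21.

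Small-subunit genes included both the highest and the lowest fold of all members. Rps29, a small zinc-binding protein of the small subunit, had a pair of intervals. That at the promoter, chr12:69159033-69159338, had the most fragments of any member, 80 (63.4 to 99.6), over an IgG expectation of 10, which gave a fold of 3.21 and q 1.83e-05. It overlapped Rn7s1, a gene for the RNA of the signal recognition particle, and was the only member interval over a small RNA gene, a class found under 46 of the 1849 intervals (2.49%). RNA genes of this type have many near-identical copies, and their part in the signal was not tested.

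The other interval assigned to Rps29, chr12:69143405-69144102, lay 15.0 kb from its start. Its fold of 10.1, from 45 fragments (32.8 to 60.2) over 1, ranked 13 among 1849 intervals, with q 7.57e-14. The interval lay over the long noncoding RNA gene Gm31447, in an exon of a transcript in the authors' annotation, and not over Rps29. It is tied to the ribosomal protein gene by the nearest start alone. The promoter intervals of Rps29 and Rpl36al were separated by 24.4 kb, so 3 of the 27 members stood within a short stretch of chromosome 12. In that stretch Lrr1 lies between Rps29 and Rpl36al.

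**Figure D4:**
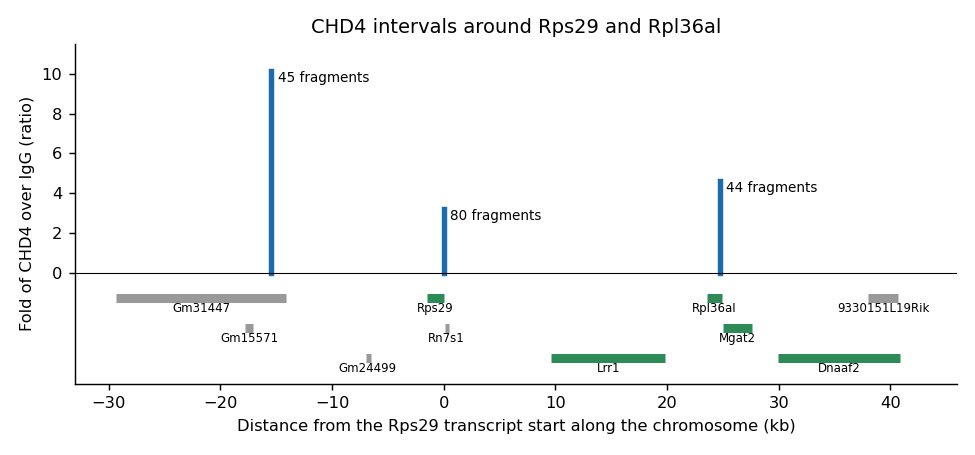
The Rps29 and Rpl36al region of chromosome 12, with distance from the Rps29 start in kb on the x axis, the fold of each CHD4 interval on the y axis and annotated genes beneath. The interval of fold 10.1 lies over Gm31447, away from Rps29, while those of 3.21 and 4.60 lie at the Rps29 and Rpl36al promoters.

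Rps14, a small-subunit protein whose human counterpart is lost in the deletion on chromosome arm 5q of a myelodysplastic syndrome, was named for 3 intervals, more than any other member. None was at its promoter. On chromosome 18, the interval 60751972-60752215 lay 22.3 kb away with fold 6.29 from 27 fragments over 1 and q 2.45e-05. The interval 60763146-60763405 lay 11.1 kb away with fold 4.54 from 40 over 3 and q 8.59e-05, and 60762302-60762529 lay 11981 bp away with fold 3.45 from 54 over 6 and q 0.000411. The latter pair were 0.617 kb apart. No annotated gene lay under any of the 3, and the nearest other coding gene was Ndst1, 2937 bp from the first of them, which encodes an enzyme that modifies heparan sulphate.

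Rps19, the small-subunit gene whose human counterpart is often mutated in Diamond-Blackfan anaemia, had the lowest fold of all members. At 2.44 its fold was at the 1.08 percentile of the list, yet its 77 fragments (60.8 to 96.2) were at the 95.2 percentile and its IgG expectation of 12.9 at the 97.5 percentile. A low fold here went with high signal in both antibodies. The interval held the authors' start, with q 0.00623, but lay over no gene by the spans of the RefSeq table. Rps27l, a close relative of Rps27 that p53 can induce, had a fold of 4.02 from 33 fragments in an interval ending 20 bp upstream. Rps10, of the small subunit, had 3.56 from 29 fragments in an interval ending 23 bp upstream. That interval lay over the long noncoding RNA gene Gm15420 and not over Rps10 itself. Its q of 0.0330 was the only one above 0.01 among the 13 cytosolic intervals.

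The mitochondrial ribosome was represented by large-subunit genes only, apart from Mrps12 beside the Sars2 interval. Mrpl22 had an interval at chr11:58171713-58171911, beginning 24 bp after its start, with fold 5.10 from 21 fragments over 0.960 and q 0.00108. Mrpl45, whose product helps attach the mitochondrial ribosome to the inner membrane, was named for an interval 13.1 kb away at chr11:97302394-97302661, over the long noncoding RNA gene Gm31005. Its fold was 4.36 from 18 fragments over 1, with q 0.0442. Both rested on about 20 fragments, and the latter was near the list's q limit, with the largest q in the list being 0.0492.

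Of the initiation factors, Eif2s3x had the highest fold. It encodes the gamma subunit of eIF2, which carries the initiator tRNA, from the X chromosome, and its Y-linked partner Eif2s3y is known to be needed for spermatogonial proliferation in mice. The interval at chrX:94212571-94213170 held the start, with its summit 1 bp upstream and a fold of 5.26 from 19 fragments over 0.738 (q 0.00119). At Eif4e, which encodes the cap-binding protein, the interval also held the start, with fold 3.05 from 35 fragments over 4.25 and q 0.0437. Eef1a1 encodes the elongation factor that delivers charged tRNAs, one of the most abundant cell proteins. Its fold was 2.75 from 55 fragments over 7.94, with q 0.0176, in an interval ending 294 bp upstream of its start.

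The other factor intervals were distant. Eif4e1b, a cap-binding relative of Eif4e expressed in germ cells, was named for an interval 3.20 kb upstream at chr13:54780334-54780797, over the long noncoding RNA gene Gm16249, with fold 4.06 from 45 fragments over 4 and q 0.000190. Eif4g3, a scaffold of the initiation complex that is needed for male meiosis in mice, was named for an interval 62.1 kb away at chr4:137930687-137930911, inside an intron of Ece1, which encodes an endothelin-converting protease. Its fold of 4.72 rested on 16 fragments over 0.664, with q 0.0300. That interval and the one of 1700073E17Rik had the same fold, fragments and q, and the latter, at chr6:145370881-145371070, was 20.4 kb from the pseudogene, over the noncoding gene LOC105247329 of the RefSeq table, while the authors' annotation places it in the last intron of a transcript of Lmntd1, a coding gene. For these genes the label of translation comes from the nearest start alone.

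Among the synthetases, Dars, the cytosolic aspartyl-tRNA synthetase, had no promoter interval. An interval in its intron 4 of 15, chr1:128398974-128399535, had fold 6.62 from 44 fragments over 2, with q 6.42e-08, and lay 17.8 kb from the start. A further one, chr1:128472324-128472591, lay 55.0 kb away over no gene, with fold 5.06 from 16 fragments over 0.554 and q 0.0118. The intronic interval was the only one of the 10 away from promoters that lay over the gene it was assigned to. Of the other 9, 1 lay over another coding gene, 4 over long noncoding RNA genes only and 4 over no gene, by the spans of the RefSeq table. Of the 17 promoter intervals, 12 overlapped their own gene.

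The other 3 synthetases named, Wars2, Yars2 and Sars2, charge tryptophan, tyrosine and serine tRNAs inside mitochondria, and each had its interval at the promoter. Wars2 had fold 4.70 from 43 fragments over 3.14, at chr3:99141121-99141332, with q 3.20e-05. Yars2 had 3.76 from 21 fragments over 1.66, in an interval ending 91 bp upstream, with q 0.0429. Sars2 had 3.42 from 41 fragments over 4.43 at chr7:28742014-28742241, beginning 6 bp after its start. Aarsd1, whose product is related to the editing domain of alanyl-tRNA synthetase, had 4.76 from 19 fragments over 0.923 at chr11:101417227-101417502, across its start, with q 0.00491.

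Promoter members kept close to the start. Each interval was placed by its summit of highest fold. These summits lay at a median of 68 bp upstream (quartiles -133 and 36 bp, negative values upstream). Of them, 16 of 17 were within 300 bp of the start (94.1%). The 631 promoter intervals of the list had a median of -9 bp (quartiles -218 and 136), with 466 within 300 bp (73.9%). Summits lay upstream of the start in 11 of 17 members (64.7%) and in 326 of 631 (51.7%). The farthest out of these summits was that of Eef1a1, 372 bp upstream. The Rpl5 summit of lower fold, not counted here, lay at 500 bp.

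**Figure D5:**
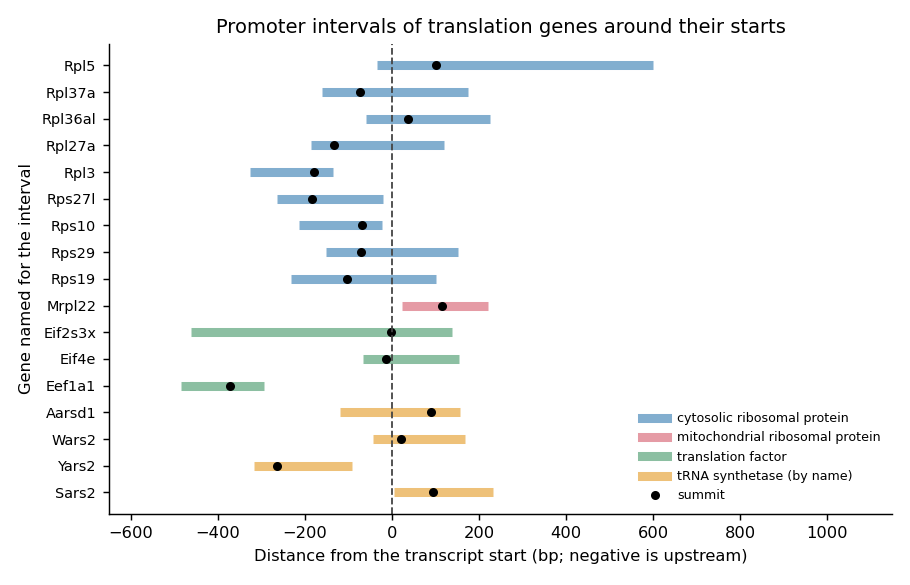
Extent of the 17 promoter intervals (bars) and the summit of highest fold in each (points) by distance from the authors' transcript start in bp (x axis, negative upstream), coloured by gene class. All summits shown except that of Eef1a1, at -372 bp, lie within 300 bp of the start.

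Lists of other genes of ribosome production and of the control of translation had shares whose intervals held the 6.07% of all genes. Of 75 ribosome biogenesis genes, 2 were named (2.67%, 0.325 to 9.30), both at promoters. These were Wdr75, a factor of early rRNA processing, with fold 3.96 from 41 fragments, and Nop16, a nucleolar protein of large-subunit assembly, with 3.05 from 35. Of 45 genes that control translation, 4 were named (8.89%, 2.48 to 21.2). At promoters were Ppp1r15b, a regulatory subunit that directs removal of the phosphate from eIF2, with fold 3.54 from 73 fragments, and Eef2k, the kinase of elongation factor 2, with 4.58 from 34. Rheb, the small GTPase that activates mTORC1, was named 7.43 kb away with 6.68 from 19 fragments. Eif4ebp1, which holds back eIF4E when mTORC1 is inactive, was named 1.56 kb away with 6.08 from 38.

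The labelled cell type could not be judged from this list, which records binding and not expression. Of 9 marker genes of undifferentiated spermatogonia, 1 was named for an interval (Nanos3, fold 3.40, 6.80 kb from its start). Of 5 of differentiating germ cells none was named, beside the 6.07% of all genes. Among markers of other testis cells, 1 of 4 for Sertoli cells was named (Gata4, for intervals 0.151 and 8.51 kb from its start). For Leydig cells 0 of 4 were named, and for peritubular, endothelial and macrophage cells 1 of 4 (Acta2, 15.9 kb from its start). The exact 95% binomial interval of 1 in 4 runs from 0.631 to 80.6%, so lists of this size say nothing about which cells were present.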

How the data were processed

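CHD4 CUT&Tag was done in 2 CHD4 and 2 IgG samples. The submitters' processing notes name MACS2 2.1.2, Bowtie2 2.2.5, Trim Galore 0.5.0 and the build mm10. The sources used here do not say how replicates were combined or duplicates treated. The authors deposited 1 peak list. Per the file headers it holds a fold (the ratio of CHD4 to IgG signal at the summit) and its log2. The deposited −log10 p and −log10 q columns have lost their headers to a spreadsheet error and were identified by the caller's column order. A deposited score restates q. A pair of headers are values of the opening peak, so that peak is not analysed here, and 1 closing line holding only an error was dropped.

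Rows sharing position were collapsed to intervals, each with the values of its summit of highest fold. Gene assignments, distances and promoter classes (within 1 kb) are the authors'. Fragments were recovered by solving the caller's formulas, in which fold is (scaled CHD4 fragments + 1) / (IgG expectation + 1) and p is a Poisson tail. With a scale of 0.429, each of the 2066 summits had 1 solution (tolerance 0.0005 in −log10 p), while the best other scale solved 50% of 40 sampled. That scale divided by a whole number also solves them, and the largest was kept, so fragments are the fewest that fit. On this model the CHD4 library was 2.33 times the IgG library.

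Families were defined by symbol among protein-coding genes of a RefSeq table of GRCm38.p6, and 99.8% of gene rows matched it. Binomial and Poisson 95% intervals (scipy 1.17.1, pandas 2.3.3, Python 3.11.15) cover counting error only. No p-value was computed. Members and lists were chosen with earlier results of these data known. Every member gene is named. Fuller values are given for Rpl5, Rpl37a, Rps29 and Rps14, for the 3 highest folds of each class and for genes with several intervals.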

Additional observations from a re-analysis of the deposited data

How the results depend on the processing

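No paired analysis was possible because the deposited list is 1 call with no value for a single sample, and for the same reason no replicate could be left out. The number of members, their promoter share and their median fold were 29, 65.5% and 4.54 when summits were counted separately, and 26, 61.5% and 4.57 without intervals over small RNA genes. With q held to 0.01 the number fell from 27 to 19, with a promoter share of 68.4% and a median fold of 4.60. The promoter share fell to 37.0% when the interval had to contain the start. Gene counts moved more, from 10 cytosolic, 2 mitochondrial, 5 factor and 4 synthetase genes. Among intervals at or above the list's median fold, 4 of the 89 cytosolic ribosomal protein genes were left. With them were 1 of 78 mitochondrial, 1 of 54 factor and 1 of 37 synthetase genes, beside 3.09% of all protein-coding genes. Of the 4 cytosolic genes, Rps29 and Rps14 stayed only through intervals away from promoters. At promoters, 1 of 78 mitochondrial and 3 of 54 factor genes were left, beside 2.55% of all genes. At q 0.01, 1 of 78 mitochondrial and 2 of 54 factor genes were left, beside 4.76% of all genes. By position, a setting added after seeing the data, 3 of 42 factor genes had an interval, beside 2.7% of all genes with a start. The first 3 of these settings keep fewer intervals by construction. The last counts only starts within 1 kb of an interval, and its 3 factor genes were the same as those with a promoter interval. Depth limits the folds: a member summit held 16 to 80 fragments, the fewest that fit the model, and the spread between animals is unknown.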
